A study of Mus musculus with 16 samples.

Results

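The genes described here are 10 transcripts that neurons induce when they are active: Fos, Fosb, Junb, Egr1, Egr2, Egr4, Arc, Npas4, Nr4a1 and Nptx2. They were picked by symbol from the 24060 genes listed for each library, and all 10 passed the filter of a mean of at least 1 RPKM (reads per kilobase of gene per 1e+06 reads) that left 12015 genes. The choice was made with the levels in P301S+ TREM2-/- and P301S+ TREM2+/- mice in view, so the difference between those 2 groups is given as a description without a test.

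The study sequenced RNA from the cortex of 16 mice of 8 to 9 months on a C57BL/6 and C3 background, with 4 mice (2 females and 2 males) in each of 4 genotypes. Control mice were TREM2+/+ and had no tau transgene. The other 3 groups carried the P301S transgene, which encodes a human tau variant linked to inherited dementia, and were TREM2+/+, TREM2+/- or TREM2-/-. TREM2 is a receptor of microglia, the macrophages of the brain. The labels do not name the promoter that drives the transgene, and there was no TREM2-/- group without the transgene.

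Immediate early genes are switched on within minutes when calcium entry and kinase signalling activate factors already bound at their promoters, chiefly CREB at cAMP response elements and SRF at CArG boxes. Most of them encode transcription factors that drive a later wave of synaptic genes, and others act at synapses directly. In cortex their transcripts are short-lived and follow recent experience, handling and arousal. The labels give no such record for these mice.

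The members fall into groups by what they encode. Fos, Fosb and Junb encode subunits of the AP-1 transcription factor, and Egr1, Egr2 and Egr4 encode zinc finger transcription factors of 1 family. Npas4 encodes a factor that responds to calcium in neurons, and Nr4a1 encodes an orphan nuclear receptor. Arc encodes a capsid-like protein that promotes removal of AMPA receptors from synapses. Nptx2 encodes a secreted pentraxin that clusters AMPA receptors at excitatory synapses on interneurons.

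RefSeq promoter windows (GRCm38.p6, the 250 bases before a start site) were found for 7 of the 10 members. Arc, Egr1 and Nptx2 have no entry in that table. The windows of 4 members are shown because they carry the core of the cAMP response element through which CREB acts, and because they differ in how many they hold. Each reads 5′ to 3′ on the strand of its gene, and the capitals mark the core TGACG or its reverse complement.
Nr4a1 (chr15:101266596-101266845, plus strand): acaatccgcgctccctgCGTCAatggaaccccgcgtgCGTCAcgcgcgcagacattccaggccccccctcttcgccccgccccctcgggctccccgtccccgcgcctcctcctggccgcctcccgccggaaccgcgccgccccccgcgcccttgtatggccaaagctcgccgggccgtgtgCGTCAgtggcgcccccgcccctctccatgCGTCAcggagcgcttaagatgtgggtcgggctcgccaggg
Fos (chr12:85473640-85473889, plus strand): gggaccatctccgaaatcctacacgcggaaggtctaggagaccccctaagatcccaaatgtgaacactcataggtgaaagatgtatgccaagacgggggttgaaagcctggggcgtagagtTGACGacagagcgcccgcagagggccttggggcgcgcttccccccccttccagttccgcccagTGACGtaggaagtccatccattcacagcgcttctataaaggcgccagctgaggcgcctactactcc
Egr4 (chr6:85513590-85513839, minus strand): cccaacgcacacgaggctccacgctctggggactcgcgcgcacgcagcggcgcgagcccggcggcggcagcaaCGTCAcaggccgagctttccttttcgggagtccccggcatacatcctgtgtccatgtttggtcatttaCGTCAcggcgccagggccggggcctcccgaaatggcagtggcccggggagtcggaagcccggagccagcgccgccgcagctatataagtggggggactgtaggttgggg
Junb (chr8:84978749-84978998, minus strand): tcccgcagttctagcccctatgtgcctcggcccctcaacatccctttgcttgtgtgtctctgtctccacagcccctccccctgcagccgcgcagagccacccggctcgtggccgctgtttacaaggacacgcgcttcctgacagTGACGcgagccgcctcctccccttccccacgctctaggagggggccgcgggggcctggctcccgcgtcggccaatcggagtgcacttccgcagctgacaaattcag

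The Nr4a1 window holds 4 cores, those of Fos and Egr4 hold 2 each, and that of Junb holds 1. Of the members not shown, Npas4 has 2 cores, Fosb has 1, and Egr2 has 2 in 3 of its 5 windows. The core occurs on either strand in 17.8% of the 32851 RefSeq windows of this length. The full element TGACGTCA, which contains the core and occurs in 1.55% of windows, is in none of the members' windows. A CArG box (1.47% of windows) was found in Egr2 alone, and TATAAA (12.4% of windows) in Fos alone. Matches to the AP-1 site TGANTCA (6.75% of windows) and the EGR site GCGTGGGCG (0.536%) were not found in these windows. A match describes letters and is not evidence of binding. The Nr4a1 window lies inside the longer gene span of GENCODE (chr15:101254269-101274795), which also holds transcripts with earlier starts.

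**Figure D1:**
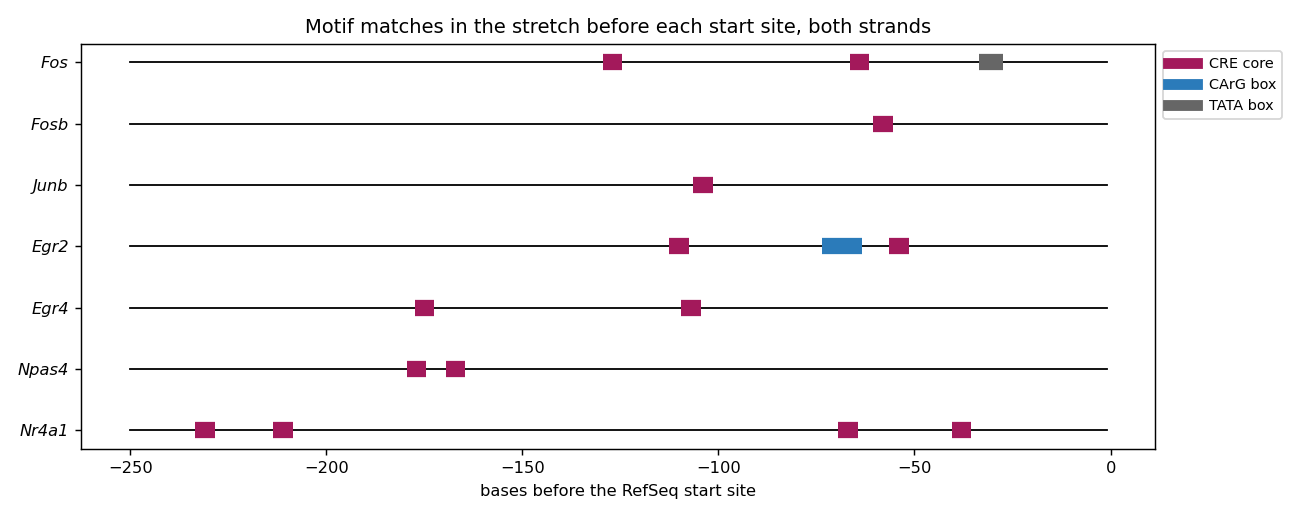
Matches to 3 motifs along the 250 bases before the RefSeq start site of 7 members, on both strands; the x axis is the distance from the start in bases and each block is 1 match. Nr4a1 has 4 cores of the cAMP response element, the most of the windows drawn, and for Egr2 1 of its 5 windows is drawn.

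Depth was 2.55 to 14.47 M reads per library (M, 1e+06). Trem2 was at 1.44 to 3.75 RPKM in P301S+ TREM2-/- mice, below every library of the other groups (4.5 to 34.0 RPKM). Control replicate 3, a female, stood apart: ribosomal Rn45s made up 4.45% of its reads against at most 2.76% elsewhere, and limma's library weights gave it 0.0448. Both P301S+ TREM2+/+ females also stood apart. Over the other 15 libraries the first principal component, 34.1% of the variance, placed these females at -51.9 and -46.8 and the rest between -8.14 and 19.1. Cortical markers were present in every library, with Slc17a7 of excitatory neurons at 64 to 274 RPKM. The labels name no batch. Values are given with and without these 3 libraries where they matter. RPKM values are compared between libraries for 1 gene, not between genes, because 3′ reads do not scale with gene length.

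Between P301S+ TREM2-/- and P301S+ TREM2+/- mice, 9 of the 10 members had a higher fitted level without Trem2 and Fosb had a lower one. Of all genes tested, 44.5% had a positive difference and 55.5% a negative one. For 3 members, Egr1, Nr4a1 and Nptx2, every TREM2-/- mouse lay above every TREM2+/- mouse. Among all genes 2.96% were separated in that direction and 2.41% in the other, where no member was found. Since this contrast chose the genes, nothing is read from these counts. The median difference of the members was 0.35 on the log2(RPKM + 1) scale, beside -0.03 over all genes tested. In bulk tissue, fewer cells of a type and less RNA per cell cannot be told apart.

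**Figure D2:**
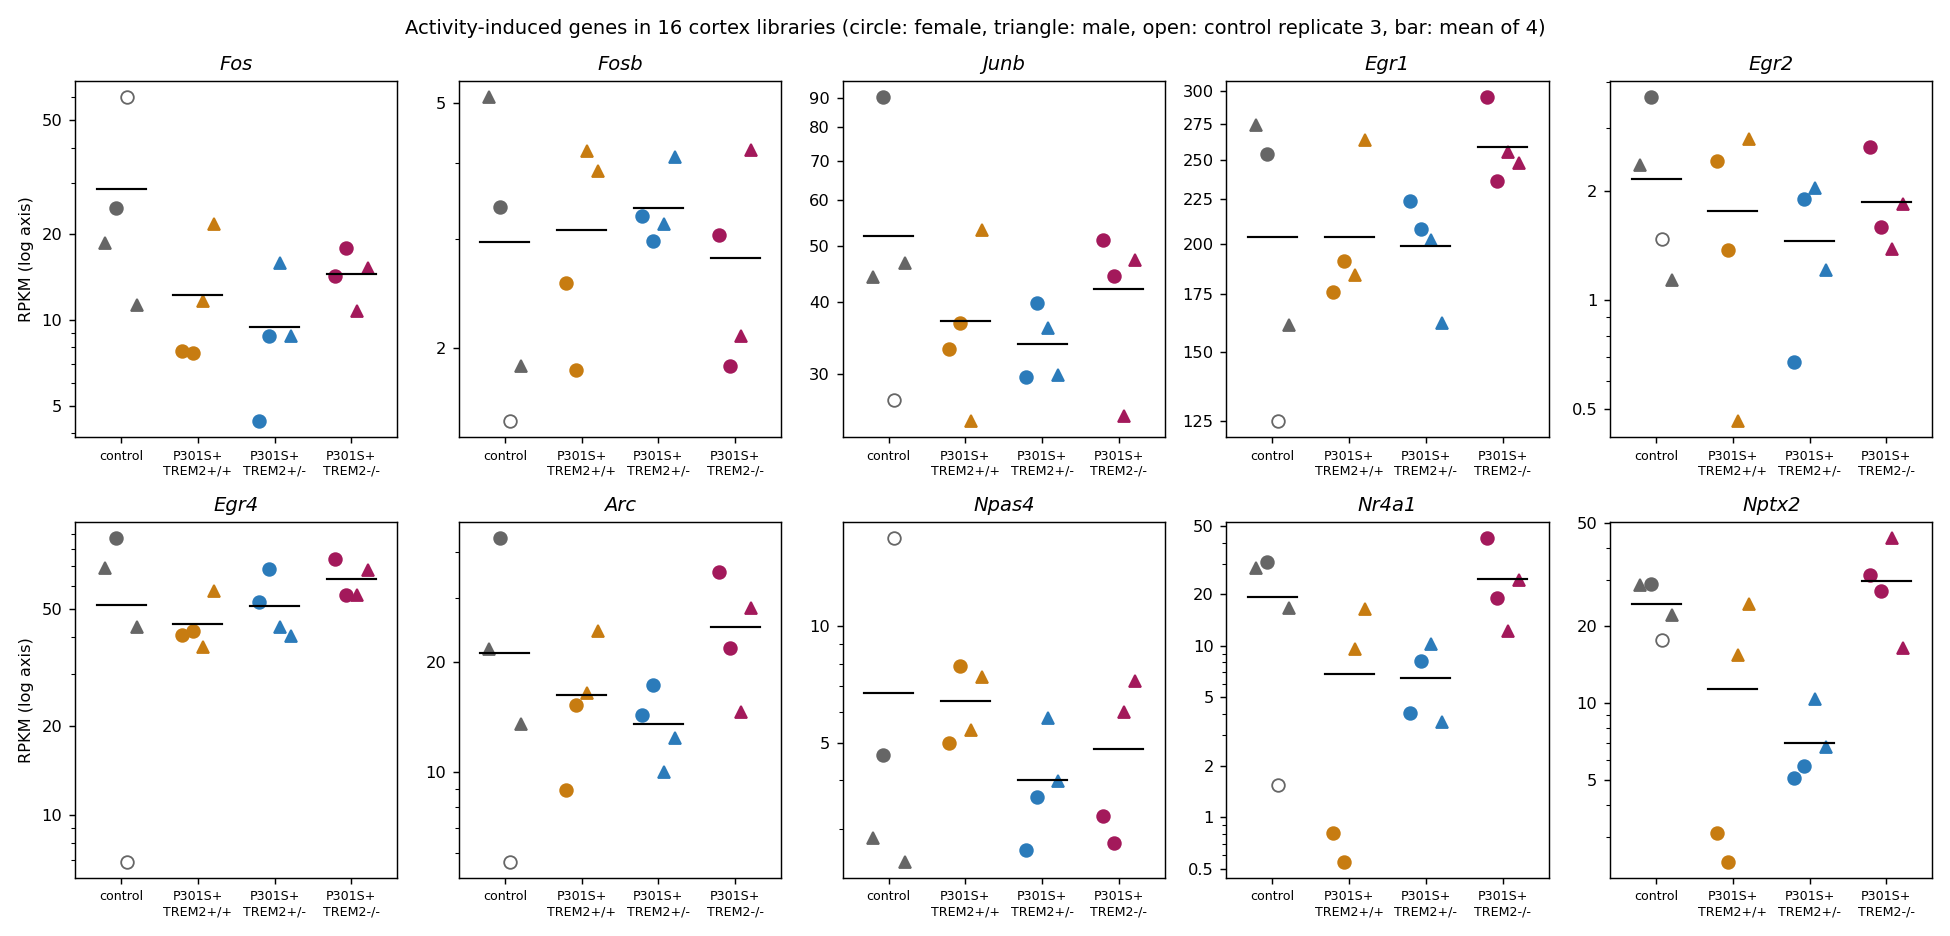
RPKM (log axis) of the 10 members in 16 libraries by genotype; circles are females, triangles males, the open symbol is control replicate 3 and bars are means of 4. For Nptx2, the 4 P301S+ TREM2-/- libraries sit at 16.3 to 43.9 RPKM, above the 4 P301S+ TREM2+/- libraries at 5.09 to 10.4.

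Nptx2 (chr5:144545902-144557478, plus strand, GRCm38) stood at 31.6, 27.2, 43.9 and 16.3 RPKM in P301S+ TREM2-/- replicates 1 to 4. In P301S+ TREM2+/- replicates 1 to 4 it stood at 5.09, 5.7, 10.4 and 6.71 RPKM. The groups did not overlap, and the lowest TREM2-/- library was a male. Mean levels were 29.7 ± 11.4 and 6.99 ± 2.4 RPKM (SD, n = 4), a ratio of 4.25, and the fitted difference was 1.91 (SE 0.46) on the log2(RPKM + 1) scale. It was 1.57 among males and 2.25 among females, and 1.57 to 2.32 over all alternatives run. The direction was the same in both sexes.

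Nr4a1 (chr15:101254269-101274795, plus strand) stood at 42.6, 19.0, 12.2 and 24.1 RPKM in P301S+ TREM2-/- replicates 1 to 4. It stood at 4.08, 8.2, 10.2 and 3.59 RPKM in the P301S+ TREM2+/- replicates. The groups did not overlap, but the lowest TREM2-/- mouse, replicate 3, was close to the highest TREM2+/- mouse. Mean levels were 24.5 ± 13 and 6.52 ± 3.21 RPKM (SD, n = 4), a ratio of 3.75, with a fitted difference of 1.73 (SE 0.78). The difference was 1.35 among males and 2.11 among females.

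Egr1 (chr18:34859823-34864984, plus strand), the most deeply read member with 1851 to 11306 reads per library, differed by less. It stood at 295, 236, 255 and 248 RPKM in P301S+ TREM2-/- mice and at 224, 208, 202 and 162 RPKM in P301S+ TREM2+/- mice. The groups did not overlap, and the lowest library without Trem2 was replicate 2, the shallowest of all. The ratio of the means was 1.3 and the fitted difference 0.38 (SE 0.24).

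Arc (chr15:74669083-74672570, minus strand) stood at 35.4, 21.9, 14.6 and 28.1 RPKM in P301S+ TREM2-/- mice and at 14.3, 17.3, 9.99 and 12.4 RPKM in P301S+ TREM2+/- mice. TREM2-/- replicate 3 lay within the TREM2+/- range, so the groups overlapped. The ratio of the means was 1.86, with a fitted difference of 0.80 (SE 0.47).

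Among the AP-1 subunits, Fos (chr12:85473890-85477273, plus strand) stood at 14.2, 17.8, 10.7 and 15.1 RPKM without Trem2 and at 4.42, 8.77, 15.8 and 8.76 RPKM in P301S+ TREM2+/- mice, a fitted difference of 0.66 (SE 0.46). Its groups overlapped, and the difference was 0.11 among males and 1.22 among females. Junb (chr8:84974484-84978718, minus strand) averaged 42.0 ± 11.4 RPKM without Trem2 and 33.8 ± 4.97 RPKM in P301S+ TREM2+/- mice, with overlapping groups. Junb overlaps Prdx2 on the other strand, and nothing says whether reads were counted by strand. Fosb (chr7:19302696-19310051, minus strand) was the member with a negative difference, -0.24 (SE 0.25), at 2.80 ± 1.06 against 3.38 ± 0.485 RPKM.

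The remaining members overlapped as well. Egr4 (chr6:85511121-85513589, minus strand) stood at 74.0, 55.6, 55.7 and 67.5 RPKM without Trem2 and at 52.7, 68.4, 43.3 and 40.3 RPKM in P301S+ TREM2+/- mice. Only TREM2+/- replicate 2 reached the levels of the other group. Egr2 (chr10:67535475-67542188, plus strand), which had as few as 7 reads in a library, averaged 1.87 ± 0.555 and 1.46 ± 0.64 RPKM. Npas4 (chr19:4984355-4990316, minus strand) averaged 4.81 ± 2.16 and 4.01 ± 1.32 RPKM. Its fitted difference, 0.17 (SE 0.43), was -0.04 among females and 0.38 among males.

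Markers of other cell types are given here without a test, as fitted differences and summed levels. Of the microglial markers, 7 of 8 were lower in P301S+ TREM2-/- than in P301S+ TREM2+/- mice, and their summed level was 445 to 864 reads per 1e+06 (RPM) against 423 to 1420. All 5 striatal markers tested were higher, at 373 to 1710 against 223 to 996 RPM, and Drd2, a defining striatal receptor, was at 0 in 9 of the 16 libraries. Excitatory neuron markers summed to 5610 to 9080 RPM against 3830 to 9350, with 7 of 10 higher. All 5 endothelial markers were lower, at 125 to 134 against 133 to 172 RPM. Astrocyte markers were lower in 5 of 6 (5760 to 7990 against 6720 to 8470 RPM), as were inhibitory neuron markers (994 to 1340 against 1020 to 1720 RPM). Hippocampal markers were lower in 4 of 5, oligodendrocyte and choroid plexus markers in 3 of 6 each, and heat shock genes in 2 of 6. The part of these markers in the members' differences was not tested.

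The effect of the tau transgene with Trem2 intact was asked by comparing P301S+ TREM2+/+ with control mice. No member passed limma's threshold (adjusted p 0.05), nor did any gene (0.0% of 12015). At an unadjusted p under 0.05 there were 2 members, Fos and Nptx2, among 13.8% of all genes. Fitted differences were positive for 4 members (57.1% of all genes) and negative for 6 (42.9%). With all controls no member was separated, upward (3.55% of all genes) or downward (1.27%). The lowest adjusted p of a member was 0.269.

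Nptx2 stood at 3.1, 2.41, 15.4 and 24.3 RPKM in P301S+ TREM2+/+ replicates 1 to 4, and at 28.9, 29.1, 17.5 and 21.9 RPKM in controls. Replicates 1 and 2 are the females that stood apart, and only male replicate 4 reached the control range. The fitted difference was -1.51 (SE 0.46, limma adjusted p 0.269). Without control replicate 3 and both females it was -0.47 (limma adjusted p 0.844). With library weights it was -1.85 (limma adjusted p 0.0516), and without P301S+ TREM2+/+ replicate 4 it was -1.93 (limma adjusted p 0.0787).

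Nr4a1 stood at 0.813, 0.552, 9.62 and 16.5 RPKM in P301S+ TREM2+/+ mice and at 28.4, 30.9, 1.54 and 16.7 RPKM in controls. Both females with the transgene were at the bottom, together with control replicate 3. The difference of -1.58 (SE 0.78) had a limma adjusted p of 0.379. It was -2.32 (limma adjusted p 0.141) without control replicate 3, where the groups no longer overlapped, as 5.07% of all genes did in that direction. It was -0.78 (limma adjusted p 0.811) without both females as well. With library weights it was -2.74 (limma adjusted p 0.0516), just short of the threshold that 1.64% of all genes passed.

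Fos stood at 7.76, 7.63, 11.6 and 21.6 RPKM in P301S+ TREM2+/+ mice and at 18.5, 24.5, 60.0 and 11.2 RPKM in controls. The highest value was that of control replicate 3. The difference was -1.03 (SE 0.46, limma adjusted p 0.349). Npas4 also had its highest level, 16.9 RPKM, in control replicate 3. The other controls stood at 2.84, 4.66 and 2.47 RPKM, all below the P301S+ TREM2+/+ mice at 5.0 to 7.88 RPKM. Without that library 7.27% of all genes were separated in this direction. Egr4 and Arc showed the opposite in control replicate 3, where they were at 6.92 and 5.68 RPKM and the other controls at no less than 43.4 and 13.5 RPKM. The differences of the members other than Fos, Nr4a1 and Nptx2 ranged from -0.40 (Junb) to 0.27 (Npas4), and that of Egr1, 0.05, was -0.05 after median-of-ratios scaling.

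Loss of 1 Trem2 allele in tau mice was asked by comparing P301S+ TREM2+/- with P301S+ TREM2+/+ mice. Differences ranged from -0.58 (Npas4, SE 0.43) to 0.55 (Nr4a1, SE 0.78). The limma adjusted p was 1.0 for every member, and 0.0% of all genes passed. No member had an unadjusted p under 0.05, which 2.7% of all genes had. Differences were positive for 3 members (52.5% of all genes) and negative for 7 (47.5%), and none was separated upward (1.4%) or downward (1.46%). The females that stood apart weighed on Nr4a1 and Nptx2 here. Without them and control replicate 3, Nr4a1 differed by -1.14 in place of 0.55 (limma adjusted p 0.972), and Nptx2 by -1.34 in place of -0.17 (limma adjusted p 0.73).

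Loss of both alleles was asked by comparing P301S+ TREM2-/- with P301S+ TREM2+/+ mice, which shares its TREM2-/- libraries with the contrast that chose the genes. No member passed, and 0.00832% of all genes (1 gene) did. Nr4a1 was 2.28 (SE 0.78) higher and Nptx2 1.74 (SE 0.46) higher on the log2 scale, each with a limma adjusted p of 0.426. Both had an unadjusted p under 0.05, as did 9.9% of all genes. Differences were positive for 8 members (46.8% of all genes) and negative for 2 (53.2%), and no member was separated upward (2.86%) or downward (4.76%). The other members ranged from -0.41 (Npas4) to 0.60 (Arc).

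Both differences depended on the P301S+ TREM2+/+ females. Without them and control replicate 3, Nr4a1 differed by 0.59 (limma adjusted p 0.884) and Nptx2 by 0.57 (limma adjusted p 0.872). Among males alone the values were 0.42 and 0.45, and among females alone 4.14 and 3.02. With libraries weighted by their fit, both passed, at 2.67 (limma adjusted p 0.0406) and 2.05 (limma adjusted p 0.0405), together with 5.74% of all genes. The weights were 0.68 and 1.3 for the P301S+ TREM2+/+ females and 0.694 and 0.599 for the males of that group. Weighting thus did not set these females aside. The estimate for P301S+ TREM2-/- against P301S+ TREM2+/- mice does not use the P301S+ TREM2+/+ females. Its SE does, because the fit shares its spread over all libraries.

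**Figure D3:**
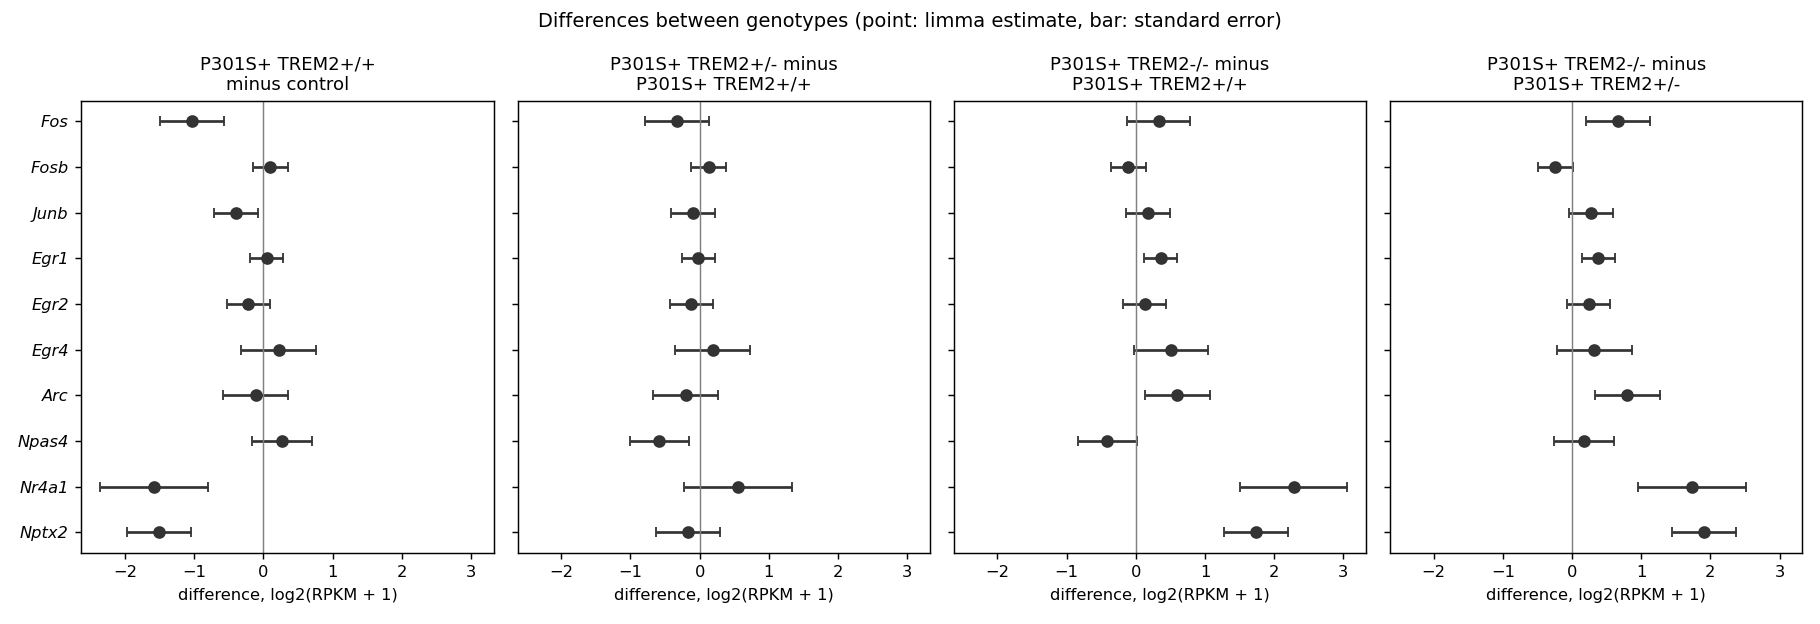
Differences between genotypes for each member in units of log2(RPKM + 1); points are limma estimates and bars standard errors. Nr4a1 and Nptx2 lie farthest from 0 in 3 of the 4 panels, and the panel of P301S+ TREM2-/- minus P301S+ TREM2+/- carries no test.

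Mean levels of Nptx2 across genotypes ran from 6.99 ± 2.4 RPKM in P301S+ TREM2+/- to 11.3 ± 10.5 in P301S+ TREM2+/+, 24.3 ± 5.68 in control and 29.7 ± 11.4 in P301S+ TREM2-/- mice (SD, n = 4). Neighbours in this order overlapped. Nptx2 in P301S+ TREM2+/- mice lay below every control, as 1.66% of all genes did. Without control replicate 3, Junb and Nr4a1 did so too, beside 5.41% of all genes. Between P301S+ TREM2-/- mice and controls no member was separated upward (2.25% of all genes) or downward (1.54%). The genotype means of Nr4a1 had the same order, with 6.52 ± 3.21 RPKM in P301S+ TREM2+/- mice, 6.88 ± 7.7 in P301S+ TREM2+/+, 19.4 ± 13.4 in control and 24.5 ± 13 in P301S+ TREM2-/- mice. Without control replicate 3 the control mean of Nr4a1 was 25.3 ± 7.59 RPKM (n = 3), above that of P301S+ TREM2-/- mice.

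Sex was the remaining comparison. No member differed between females and males at the limma threshold, which 0.0416% of all genes (5 genes) passed. The largest differences were -0.93 for Nr4a1 (SE 0.55, limma adjusted p 0.428) and -0.76 for Nptx2 (SE 0.32, limma adjusted p 0.335), both lower in females. Without control replicate 3 and both P301S+ TREM2+/+ females the Nr4a1 difference was 0.36.

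Genotype effects were also compared between the sexes. Each such test uses the P301S+ TREM2+/+ females, and the only libraries of that kind are those that stood apart. No setting could therefore leave them out. The TREM2-/- and TREM2+/- libraries are those of the contrast that chose the genes. Leaving out control replicate 3 makes control replicate 2 the only control female. No member passed in 3 such tests, where 0.00832% of genes passed for the tau effect and 0.0% for loss of 1 or of both alleles. The effect of losing both alleles was 3.72 (SE 1.31) larger in females for Nr4a1 and 2.57 (SE 0.58) larger for Nptx2, with limma adjusted p of 0.569 and 0.364. At an unadjusted p under 0.05 there were 3 members for the tau effect (13.5% of all genes), 2 for the loss of 1 allele (6.48%) and 2 for the loss of both (7.24%). With library weights 3 calls were made: Nr4a1 for the loss of 1 allele (3.37, limma adjusted p 0.0497), where 1.69% of all genes passed, and Nr4a1 and Nptx2 for the loss of both, where 1.96% passed. None was made for the tau effect, where 0.616% passed. Without control replicate 3 there were 5 calls, among them Nr4a1 (limma adjusted p 0.0126) and Nptx2 (limma adjusted p 0.0175) for the loss of both alleles, where 4.71% of all genes passed. Their differences stayed at 3.72 and 2.57, since no control enters them, and their SE was 0.71 and 0.52. The others were Nr4a1 for the loss of 1 allele (2.96, limma adjusted p 0.0469, 3.19% of all genes), and Nr4a1 (-3.51, limma adjusted p 0.0438) and Nptx2 (-2.65, limma adjusted p 0.0389) for the tau effect (2.41% of all genes). Without control replicate 2, which leaves control replicate 3 as the only control female, there were 7 calls, with Nr4a1 and Nptx2 again among them for the loss of both alleles (limma adjusted p 0.0128 and 0.0177) and Nr4a1 for the loss of 1 (limma adjusted p 0.0474). The other 4, for the tau effect, were Egr4, Fos, Npas4 and Nptx2. In that setting 41.7% of all genes passed for the tau effect, 3.16% for the loss of 1 allele and 4.67% for the loss of both.

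Within single libraries many of the members moved together, but not all 10 did so in every library. Relative to the median of the 15 libraries without control replicate 3, P301S+ TREM2-/- mice had 8, 6, 4 and 8 of the 10 members above it. P301S+ TREM2+/- mice had 1, 3, 3 and 1, and P301S+ TREM2+/+ mice had 2, 1, 2 and 10. P301S+ TREM2+/+ replicate 4, a male, was thus the library with every member above the median. Controls had 9, 9, 3 and 3. The genes were chosen with the P301S+ TREM2-/- and P301S+ TREM2+/- levels in view, so nothing is read from the difference between those counts. The share of all genes above their median was not computed.

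**Figure D4:**
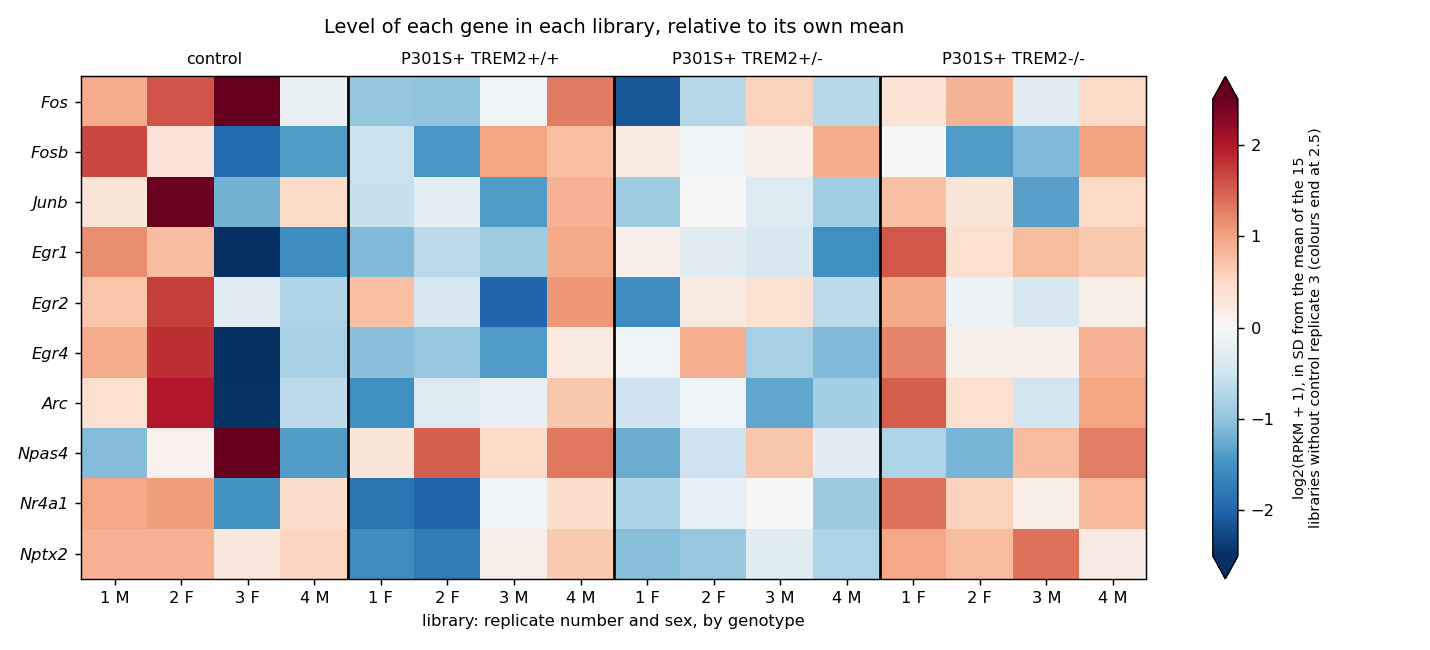
Level of each member in each of 16 libraries, as log2(RPKM + 1) in SD from the mean of the 15 libraries without control replicate 3, with the replicate number and sex under each column. Control replicate 3 has Fos and Npas4 high and Egr1, Egr4 and Arc low, while P301S+ TREM2+/+ replicate 4 is above the median for all 10 members.

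Over those 15 libraries, the 45 pairs of members had a median Pearson r of 0.51, from -0.27 to 0.89. These values are a description, because the libraries differ in genotype and depth. The closest pair was Nr4a1 and Nptx2 (r 0.89). It was followed by Egr4 with Arc (0.83) and Egr1 with Egr4 (0.82). The 5 pairs below 0 all held Npas4, the lowest being Npas4 with Nr4a1. Without both P301S+ TREM2+/+ females, Nr4a1 and Nptx2 had r 0.79 over 13 libraries.

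Nr4a1 and Nptx2 also differed from the other members in how closely they followed the leading axis of all genes. Their r with the first principal component was 0.92 and 0.90, and that of the other members -0.32 to 0.63. Over the 13 libraries without both females it was 0.82 and 0.96, and that of the other members -0.38 (Fosb) to 0.70 (Fos). The component was not fitted again for this, so its scores still come from a fit with both females. Of the other genes tested, 103 had r above 0.9 with Nr4a1 and 155 with Nptx2, while no other member had more than 1. These counts include both P301S+ TREM2+/+ females, which had the lowest levels of Nr4a1 and Nptx2. They were not repeated without these females. P301S+ TREM2-/- libraries scored 6.92 to 19.1 on this component and P301S+ TREM2+/- libraries -8.14 to 4.1. The part of whatever this component reflects in the levels of both genes was not tested.

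**Figure D5:**
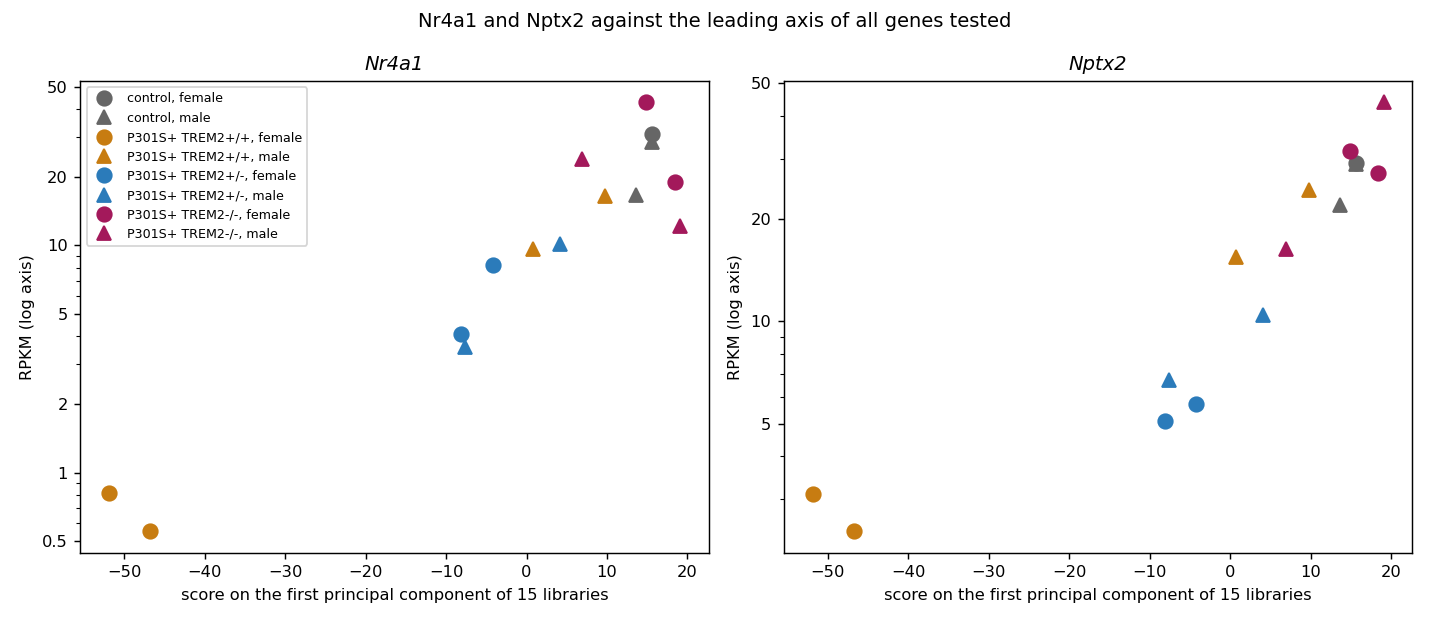
RPKM (log axis) of Nr4a1 and Nptx2 against the score of each of 15 libraries on the first principal component of log2(RPKM + 1), coloured by genotype with circles for females and triangles for males. The 2 P301S+ TREM2+/+ females lie at -51.9 and -46.8 with the lowest levels of both genes, and the P301S+ TREM2-/- libraries lie above the P301S+ TREM2+/- libraries on both axes.

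The genes whose profile was most like the mean profile of the members over 15 libraries were Bc1 (r 0.92), a noncoding RNA of dendrites, and 6030419C18Rik (r 0.89). Dact3, Hr, Myadm, Unc13a, Arpc3, Wsb2, St6galnac6 and Zc3h18 followed with r of 0.83 to 0.86. With control replicate 3 added, r stayed at 0.84 for Bc1 and 0.90 for 6030419C18Rik but was 0.14 for Dact3 and 0.07 for St6galnac6. Taken singly, Nr4a1 was most like Fam131a, Hr and Inpp5e (r 0.97 each), and Nptx2 most like Cops7a and Ttc9 (r 0.98 each). These r values also include both P301S+ TREM2+/+ females and were not repeated without them.

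Other genes of the activity programme gave no call in the 3 tested genotype comparisons of the main fit. In that fit 0.0% of all genes passed for the tau effect and for the loss of 1 allele, and 0.00832% for the loss of both. Nothing is therefore read from the absence of calls, and these genes were not examined under the other settings. The counts that follow, for P301S+ TREM2-/- against P301S+ TREM2+/- mice, stand beside 44.5% of all genes higher, 55.5% lower, 2.96% separated upward and 2.41% downward. Of 16 other immediate early transcription factors tested, 10 were higher in P301S+ TREM2-/- than in P301S+ TREM2+/- mice, with a median difference of 0.08 beside -0.03 over all genes, and none was separated. The 3 named here by their mean RPKM, which does not order genes by abundance, were Ier5 (64.3 ± 14.6 against 66.1 ± 16.6 RPKM), Klf6 (46.2 ± 5.41 against 43.7 ± 8.03) and Jun (34.1 ± 6.93 against 35.2 ± 11.5), given as mean ± SD with n = 4. Jun encodes the main AP-1 partner of Fos. These 3 genes showed differences smaller than the SD of either group.

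Of 13 other immediate early effectors and feedback regulators, 11 were higher without Trem2 (median difference 0.18) and 2 were separated upward. These were Dusp1, a phosphatase that turns off MAP kinases, at 40.3 ± 7.63 against 30.1 ± 2.81 RPKM, and Plk2, a kinase of synaptic scaling, at 36.8 ± 3.0 against 28.2 ± 3.91 RPKM. The gaps were narrow. The lowest TREM2-/- and highest TREM2+/- levels were 34.4 and 34.0 RPKM for Dusp1, and 33.5 and 32.3 RPKM for Plk2. Dusp14 stood at 92.1 ± 14 against 80.9 ± 17.0 RPKM and Rgs2 at 85.5 ± 17.1 against 75.3 ± 13 RPKM, with overlap. Of 14 late activity-induced genes 9 were higher (median 0.02), and Syt4, a synaptotagmin of dense-core vesicles, was separated at 89.8 to 111 against 74.6 to 88.3 RPKM. Scg2, a granin, stood at 271 ± 92.7 against 211 ± 83.6 RPKM, and Vgf, a neuropeptide precursor, at 114 ± 12 against 114 ± 19.1 RPKM.

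Of 20 genes that carry activity signals to the nucleus, 7 were higher and 13 lower (median -0.03). The kinases Camk2a (247 ± 48.1 against 256 ± 68.1 RPKM), Camk2b (302 ± 33.9 against 277 ± 56.7) and Camkk2 (175 ± 20.8 against 155 ± 52.1) overlapped. Elk4, an SRF partner, was separated upward (3.9 ± 0.366 against 2.82 ± 0.514 RPKM), and Hdac5, a histone deacetylase, downward (16.6 ± 3.87 against 22.2 ± 2.08 RPKM). For Hdac5 the gap was smaller than the rounding, with ranges of 11.5 to 19.8 and 19.8 to 24.6 RPKM. The last list held genes that act with neuronal pentraxins, and Pvalb as an interneuron marker. Of its 6 genes tested, 4 were higher and 2 lower (median 0.06). Gria4, the AMPA receptor subunit that Nptx2 clusters on interneurons, was separated downward, at 8.28 ± 0.392 against 10.1 ± 0.638 RPKM. Pvalb, which marks the interneurons concerned, overlapped at 147 ± 49.5 against 153 ± 73.7 RPKM. The AMPA receptor subunits Gria1 (103 ± 17.8 against 112 ± 13.6 RPKM) and Gria3 (96.4 ± 7.36 against 90.6 ± 14.3) overlapped too.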

How the data were processed

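Cortex RNA of 16 mice was extracted on RNeasy columns, made into QuantSeq 3′ libraries and read on a HiSeq4000 instrument, as the labels' protocols say. STAR, HTSeq, edgeR, limma and mm10 are named without roles in the submitters' processing notes. The deposited values are RPKM by the authors, 1 file per library. Each file has 1 line that names no gene, which was left out. Genotype came from the labels, and replicates were numbered in accession order. That libraries are separate mice follows from the labels alone.

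limma 3.58.1 (R 4.3.3, trend) was fitted to log2(RPKM + 1), which understates changes of low genes, over the 12015 genes averaging 1 RPKM or more. Its terms were genotype and sex in all libraries (11 residual degrees of freedom, 8 with the interaction), and p-values were adjusted by Benjamini-Hochberg over all genes with a threshold of 0.05. Principal components and correlations used the same scale with numpy 2.4.6 in Python 3.11.15. The fit was tested on simulated data.

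RPKM values were whole multiples of 1 read, which gave whole reads for 18910 of 18911 genes above 0 (tolerance 1e-05 reads or a relative 3e-07). The remaining gene, Rn45s, was solved from library totals. limma-voom on these reads called 0 genes for the tau effect and for the loss of 1 or of both alleles. The depth, 2.55 to 14.47 M reads (M, 1e+06), bounds counting error only, since PCR copies were not told apart by molecular identifiers.

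Every member is reported in each comparison. Of the other immediate early and late lists, genes past the threshold were to be named or, with none, the 3 with the highest mean, along with the 10 genes most like the members' mean profile. Genes of any list whose groups did not overlap, and those of the signalling and pentraxin lists, were named after their values were seen. Members and lists were chosen with earlier results of these data known. Alternatives were another pseudocount (0.1), no filter, median-of-ratios scaling, voom, only the genotypes compared, no sex term, library weights, and leaving out each library or the 3 that stood apart. After the data were seen, males only, females only, and leaving out only both P301S+ TREM2+/+ females were added.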

Additional observations from a re-analysis of the deposited data

Results flagged for a closer look

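Npas4 stood at 16.9 RPKM in control replicate 3, far from the other 3 controls at 2.47 to 4.66 RPKM. The gap to the nearest control was 0.848 of the range of the group, above Dixon's 95% critical value for 4 samples. It was the only one of 40 groups (10 members in 4 genotypes) to pass, and chance alone flags about 1 group in 20.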

How the results depend on the processing

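No member was called in any of the 3 tested genotype comparisons or between the sexes under any setting but library weights. With these, 2 were called for the loss of both alleles, beside 5.74% of all genes. The count of members lower in P301S+ TREM2-/- than in P301S+ TREM2+/- mice was 1, but 2 among females only, and 1 to 2 when single libraries were left out (2 without P301S+ TREM2-/- replicate 4). The count of sex differences in genotype effects was 0, but 3 with library weights. With these weights 0.616% of all genes passed for the tau effect, 1.69% for the loss of 1 allele and 1.96% for the loss of both. The count also moved when single libraries were left out, which leaves 1 mouse of a sex in a genotype. The cause was not tested. No paired analysis was possible because the labels carry no replicate numbers shared between groups.

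Signs of uncalled differences of members changed as follows, in log2(RPKM + 1). Without both P301S+ TREM2+/+ females, for the tau effect Arc 0.39, for females minus males Egr1 0.03 and Fos 0.28, for the loss of both alleles Fos -0.28, for the loss of 1 allele Fosb -0.08 and Nr4a1 -0.84. Among males only, for the tau effect Arc 0.22, Egr4 -0.24 and Fos 0.13, for the loss of 1 allele Egr2 0.14, Egr4 -0.14, Fosb -0.12 and Nr4a1 -0.93, for the loss of both alleles Fos -0.29, Junb -0.07 and Npas4 0.05. Among females only, for the loss of 1 allele Arc 0.39, Egr1 0.23 and Nptx2 0.77, for the tau effect Fosb -0.06 and Npas4 -0.46, for the loss of both alleles Fosb 0.10. Without control replicate 3 and both P301S+ TREM2+/+ females, for the loss of both alleles Arc -0.10, Fos -0.14 and Junb -0.07, for females minus males Egr1 0.19, Egr4 0.38, Npas4 -0.38 and Nr4a1 0.36, for the tau effect Egr4 -0.33, for the loss of 1 allele Egr4 -0.08, Fosb -0.14 and Nr4a1 -1.14. With median-of-ratios scaling, for the tau effect Egr1 -0.05, for females minus males Egr1 0.05 and Fos 0.06. With library weights, for the tau effect Egr1 -0.19, Egr4 -0.62 and Fosb -0.11, for females minus males Egr1 0.16, Egr4 0.39, Npas4 -0.20 and Nr4a1 0.03, for the loss of 1 allele Nptx2 0.07. With a pseudocount of 0.1, for females minus males Npas4 -0.01. Leaving out single libraries gave these ranges that cross 0: for the tau effect Arc -0.63 to 0.37, Egr1 -0.17 to 0.23, Egr2 -0.44 to 0.06, Egr4 -0.57 to 0.69, Fosb -0.10 to 0.29 and Npas4 -0.02 to 0.84, and for the loss of 1 allele Arc -0.47 to 0.03, Egr1 -0.10 to 0.11, Egr2 -0.39 to 0.11, Junb -0.24 to 0.14 and Nptx2 -0.53 to 0.25, and for females minus males Arc -0.21 to 0.29, Egr1 -0.12 to 0.07, Egr4 -0.40 to 0.24, Fos -0.27 to 0.13, Junb -0.01 to 0.30 and Npas4 -0.28 to 0.11, and for the loss of both alleles Egr2 -0.15 to 0.35 and Fosb -0.23 to 0.05.

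Differences between P301S+ TREM2-/- and P301S+ TREM2+/- mice kept their sign for 9 members under each setting run, the exception being Npas4 (-0.04 to 0.38). Comparisons with P301S+ TREM2+/+ or control mice include the 3 libraries that stood apart, and the contrast of P301S+ TREM2-/- with P301S+ TREM2+/- mice chose the genes and has no test. Egr2 had 7 reads in 1 library and 12 in the shallowest, so counting error is large there.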
